A study of Homo sapiens with 3 samples.

Results

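The WNT genes described here are 10 genes that act in the sending, receiving and damping of WNT signals: WLS, SFRP1, SFRP2, FZD3, FZD5, FZD7, DKK1, RSPO3, AXIN2 and LEF1. They were taken by symbol from the deposited count matrices, in which all 10 were found among 31113 gene symbols. The rule uses no measured value, although the genes were proposed with earlier results of these data known. The cells are H9, an established human embryonic stem cell line, profiled one by one with the droplet method inDrop in its TruDrop version. In such a method every cell is tagged with a barcode, and RNA molecules are told apart by a short random tag, the unique molecular identifier (UMI). The 3 libraries, 1 per day, are labelled day 0, day 2 and day 6 of differentiation into neural progenitor cells. The labels name the STEMdiff SMADi Neural Induction Kit and the stem cell medium mTeSR for all 3 libraries, and a human embryonic stem cell for day 0 against a differentiated cell or neural progenitor for day 2 and day 6. The series title concerns enhancers, their chromatin and their DNA methylation in this differentiation. The sample names end in A, B and A, letters whose meaning no source used here gives.

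WNT proteins are secreted signals that carry a lipid, and WLS escorts them from the Golgi to the cell surface. On the receiving cell they bind Frizzled (FZD) receptors together with the co-receptors LRP5 or LRP6, which stops the destruction of beta-catenin and lets it act with TCF and LEF factors on target genes such as AXIN2 and LEF1. SFRP proteins bind WNTs outside the cell, DKK1 blocks the co-receptors, and R-spondins such as RSPO3 keep Frizzled receptors on the surface. In the early neural plate, low WNT signalling favours forebrain identity and high WNT signalling favours posterior identity and neural crest.

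DKK1 is itself a classical target of beta-catenin, so the bases before its start are shown here beside those of WLS and FZD5, the other members with the widest differences between libraries among those with a sequence. Each line gives 250 bases that end just before 1 transcription start site in RefSeq, build GRCh38.p14, read 5′ to 3′ on the strand of the gene. Capitals mark each match to any of the letters of TCF and LEF binding sites, which are CTTTGAT, the variant CTTTGAA, the variant CTTTGTT and the variant CTTTGTA, searched on both strands. The window of DKK1 is chr10:52314031-52314280 on the plus strand, that of WLS chr1:68232524-68232773 on the minus strand, and that of FZD5 chr2:207769907-207770156 on the minus strand.
DKK1: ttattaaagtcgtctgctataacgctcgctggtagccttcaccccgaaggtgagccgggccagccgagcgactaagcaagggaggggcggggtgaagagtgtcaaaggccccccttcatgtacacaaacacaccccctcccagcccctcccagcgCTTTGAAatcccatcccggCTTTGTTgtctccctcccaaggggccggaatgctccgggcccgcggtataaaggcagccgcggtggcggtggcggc
WLS: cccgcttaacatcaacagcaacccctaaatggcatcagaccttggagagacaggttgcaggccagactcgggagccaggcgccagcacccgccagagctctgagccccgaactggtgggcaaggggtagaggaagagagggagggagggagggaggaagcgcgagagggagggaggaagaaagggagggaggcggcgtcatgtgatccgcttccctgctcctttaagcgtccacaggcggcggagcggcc
FZD5: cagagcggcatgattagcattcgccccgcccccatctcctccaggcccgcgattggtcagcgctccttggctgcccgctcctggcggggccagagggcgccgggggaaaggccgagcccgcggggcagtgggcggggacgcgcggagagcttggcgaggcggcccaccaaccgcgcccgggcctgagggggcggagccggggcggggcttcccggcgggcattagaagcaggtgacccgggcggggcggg
DKK1 held 2 matches, CTTTGAA starting 95 bases and CTTTGTT starting 76 bases before the start site, both on the strand of the gene. The windows of WLS, FZD5, LEF1, SFRP2 and RSPO3 held 0. Those of WLS and LEF1, the latter at chr4:108166302-108166551, lie wholly inside the gene spans given below. They therefore do not cover the bases before the outermost start of these genes. These 6 members were the ones found in the promoter table, WLS with a pair of start sites. SFRP1, FZD3, FZD7 and AXIN2 were not matched. Of 35116 such windows of 27305 genes, 11.96% held at least 1 match and 1.21% held at least 2. A match describes letters and does not show that a factor binds.

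Kept cells numbered 2290, 2419 and 4180 in the day 0-, day 2- and day 6-labelled libraries, and their UMIs summed to 28341741, 20626135 and 41268018. Median depth was 8770, 3814 and 4429 UMIs per cell, and the median share of mitochondrially encoded UMIs was 12.1%, 5.26% and 8.27%. Levels are given as UMIs of a gene per 1000000 summed UMIs of the kept cells (CPM), so that 3 UMIs equal 0.106, 0.145 and 0.0727 CPM in that order. Marker genes went against the day labels. The pluripotency factor POU5F1 stood at 2.22, 1229 and 268 CPM in the day 0-, day 2- and day 6-labelled libraries, and the neural progenitor factor PAX6 at 175.5, 6.64 and 27.9 CPM. The day 0-labelled library, named embryonic stem cells in the labels, thus held the least POU5F1 and the most PAX6. The libraries are therefore named by their labels throughout, and no difference between them is given as a change over time. Clustering put each library into a pair of clusters of its own, and 4, 41 and 161 cells fell into clusters mostly of another library. Kept cells shared 38 barcodes between the day 2- and day 0-labelled libraries, 72 between day 6 and day 2, and 82 between day 6 and day 0. With 1 library per day nothing could be tested between days. All intervals are 95% intervals that cover counting error only, not the variation between cultures, and no value has a replicate check.

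WLS was 42.2-fold and FZD5 7.58-fold higher in the day 0-labelled library than in the day 2-labelled one, and both were over 5-fold higher in the day 6-labelled library than there, whereas FZD7 and SFRP1 were highest in the day 6-labelled library. SFRP2 was lowest there, and DKK1 was found mainly in the day 0-labelled library. AXIN2 and RSPO3 were scarce in all 3 libraries. A gene was counted as measured in a comparison if it reached 10 CPM in at least 1 of the 2 libraries compared. In the comparison of labelled day 2 with day 0, 8 members were measured, and 0 were at least 2-fold higher in the day 2-labelled library, against 10.1% of all measured genes. In the same comparison 5 members, WLS, FZD3, FZD5, DKK1 and LEF1, were at most 0.5 times, against 10.2% of all measured genes. The members' median log2 ratio was -2.04, where that of all 10160 measured genes was 0.01.

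In the comparison of labelled day 6 with day 2, 7 members were measured. WLS, FZD5, FZD7 and LEF1, 4 members, were at least 2-fold higher in the day 6-labelled library, against 8.30% of all measured genes, and 1 member, SFRP2, was at most 0.5 times, against 6.32%. The median log2 ratio was 1.51 for the members and 0.12 for all 10178 measured genes. Between labelled day 6 and day 0, 1 of 8 measured members, FZD7, was at least 2-fold higher in the day 6-labelled library, against 9.94% of all measured genes. WLS, SFRP2, FZD3 and DKK1, 4 members, were at most 0.5 times, against 6.09%. The members' median log2 ratio there was -0.75, and that of all 10078 measured genes was 0.11. Under median-of-ratios size factors the split of all genes moved from 845 higher and 643 lower to 668 and 781 for labelled day 6 against day 2, and from 1002 and 614 to 806 and 758 for labelled day 6 against day 0. Those factors moved the median log2 ratio of all genes by -0.12 and -0.10. The counts of members in each direction were the same under them. AXIN2 and RSPO3 were measured in no comparison, and DKK1 was not measured between labelled day 6 and day 2. A member that passed 10 CPM only through the library where it is high could be counted in that direction alone. This held for WLS, DKK1 and LEF1 between labelled day 2 and day 0. It also held for WLS and LEF1 between day 6 and day 2, and for DKK1 between day 6 and day 0. With a minimum of 50 CPM, chosen after the data were seen, 3 members differed in place of 5 in each comparison with labelled day 2, namely WLS, FZD3 and FZD5 against day 0, and SFRP2, FZD5 and FZD7 against day 6. The 3 comparisons share libraries and are not independent of each other.

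**Figure D1:**
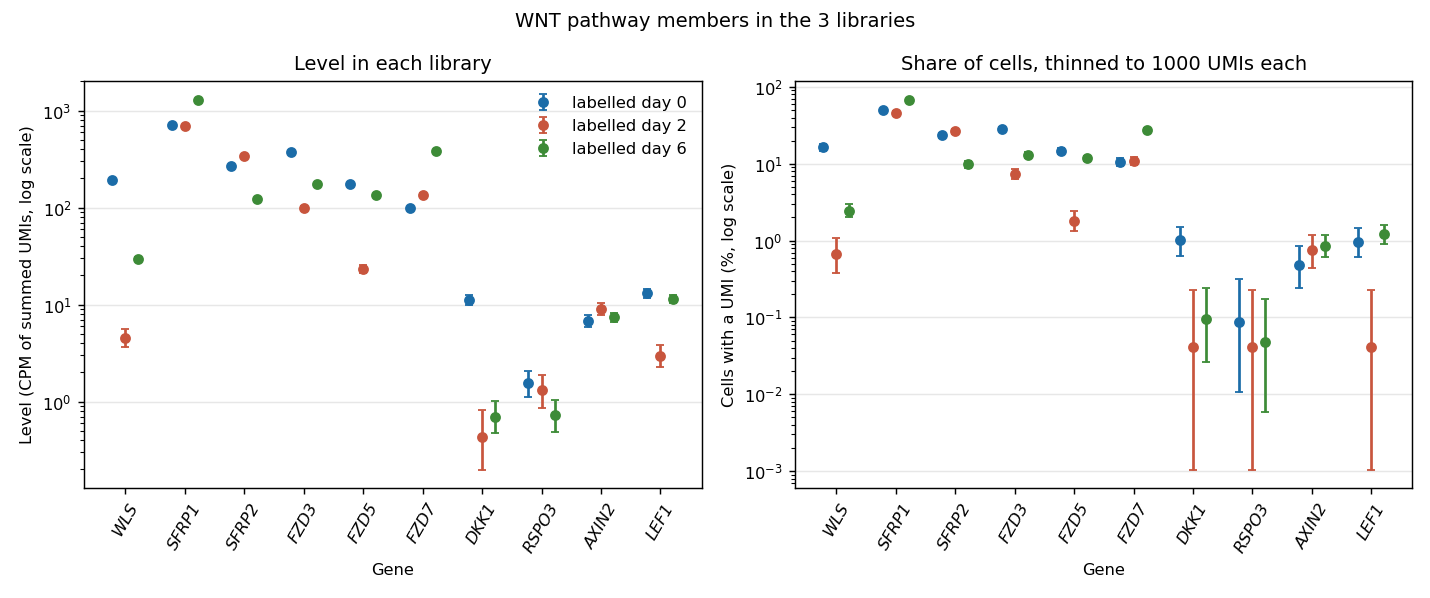
The left panel plots the level of each gene (CPM of summed UMIs, log axis) and the right panel the share of cells with a UMI after each cell was thinned to 1000 UMIs (percent, log axis). Points are the 3 libraries by labelled day and bars are 95% counting intervals. WLS stands at 192 CPM in the day 0-labelled library and 4.56 CPM in the day 2-labelled one, while SFRP1 lies between 701 and 1292 CPM in all libraries.

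**Figure D2:**
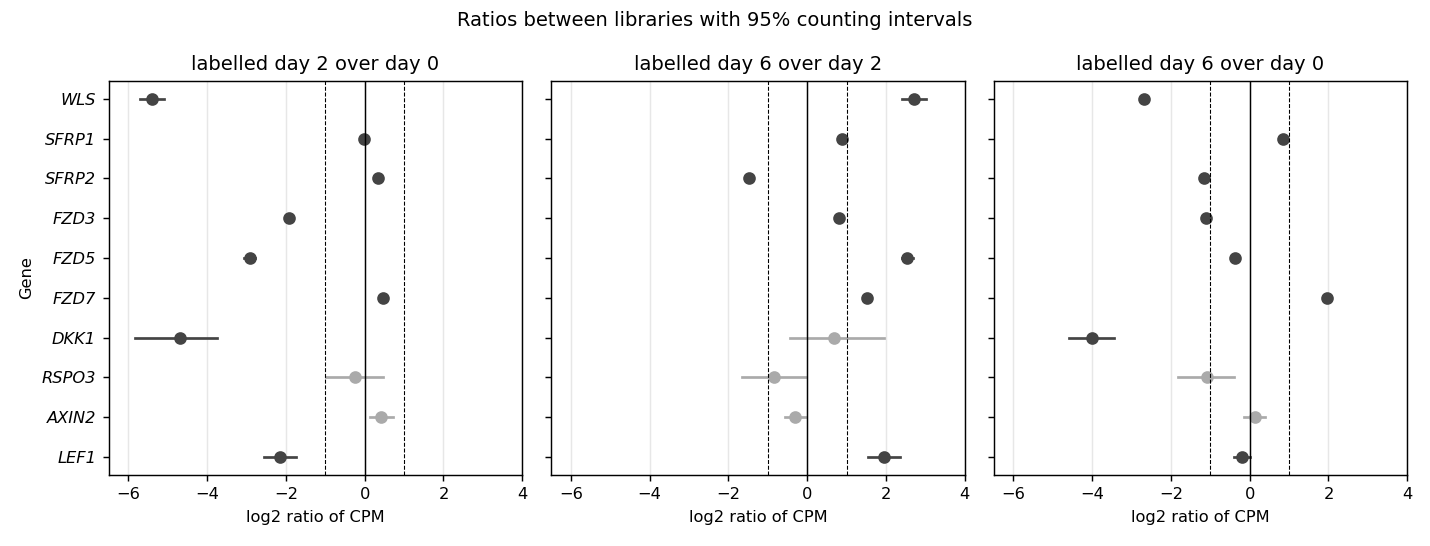
The 3 panels plot the log2 ratio of CPM (horizontal axis) of each gene (vertical axis) between libraries named by labelled day. Points are ratios, horizontal lines are 95% counting intervals, dashed lines mark a 2-fold difference, and grey points are genes under 10 CPM in both libraries. WLS, DKK1 and FZD5 lie farthest to the left in the panel of labelled day 2 over day 0.

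Secretion was represented by WLS, on chromosome 1 at 68098473 to 68233120 (GENCODE v29, GRCh38). WLS stood at 192 CPM (187 to 197) in the day 0-labelled library, 4.56 CPM (3.68 to 5.58) in the day 2-labelled one and 29.6 CPM (28.0 to 31.3) in the day 6-labelled one. These levels rest on 5450, 94 and 1223 UMIs. The order was therefore labelled day 0, day 6, day 2, with no overlap of the intervals. The level was 42.2-fold higher (34.4 to 52.3) in the day 0-labelled library than in the day 2-labelled one, and 6.49-fold higher (6.10 to 6.91) than in the day 6-labelled one. The day 6-labelled library in turn was 6.50-fold higher (5.27 to 8.11) than the day 2-labelled one. When every cell was thinned to 1000 UMIs these differences from labelled day 2 were smaller, 24.3-fold and 3.26-fold. With cells limited to 10% mitochondrial UMIs they were larger, 67.2-fold and 10.03-fold.

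The share of cells with a WLS UMI at 1000 UMIs per cell was 16.3% (14.8 to 17.9), 0.661% (0.379 to 1.07) and 2.46% (2.02 to 2.98) in the day 0-, day 2- and day 6-labelled libraries. Without thinning the shares were 65.9%, 3.35% and 19.6%, at the unequal median depths given above. Free RNA in droplets can place a UMI in a cell that does not express the gene. As a gauge of stray counts, 10 genes of blood, liver, muscle, lung, kidney, skin and pancreas had thinned shares of at most 0.131%, 0.0827% and 0.0718%. Being genes of other tissues, they do not gauge free RNA of a gene that other cells of the library express. Unthinned, their highest shares were 1.57%, 0.785% and 0.694%, each of the heart muscle gene MYH6. WLS was above this gauge in every library, thinned and unthinned, which does not show that none of its UMIs came from free RNA. An antisense gene, GNG12-AS1, overlaps WLS, and it stood at 19.8, 1.503 and 3.66 CPM in the same library order. No source used here says whether counting used strand, so the reads of the overlapping pair cannot be told apart.

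Of the WNT secretion genes listed with WLS, none of the other 4 reached 10 CPM in a library. The 19 WNT ligands in the files summed to 77.0, 40.3 and 37.4 CPM in the day 0-, day 2- and day 6-labelled libraries, with 1 ligand at 0 UMIs in each. Ligands at 10 CPM or more numbered 2, 1 and 1. WNT5B, a ligand best known for signalling without beta-catenin, stood at 40.6, 4.99 and 5.02 CPM. It was 8.13-fold higher (6.64 to 10.05) in the day 0-labelled library than in the day 2-labelled one, and 8.10-fold higher (6.98 to 9.43) than in the day 6-labelled one. WNT2B stood at 21.4, 22.2 and 12.6 CPM, and WNT9A at 3.56, 3.30 and 5.65 CPM. WNT5A, at 2.33, 2.08 and 6.45 CPM, was among the 3 highest ligands in the day 6-labelled library alone. The ligands other than WNT5B and WNT2B were thus under 10 CPM in every library.

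The Frizzled receptors did not share 1 pattern. FZD5, a receptor of the anterior neural plate and eye field, lies on chromosome 2 at 207762586 to 207769563. It stood at 177 CPM (172 to 182) at labelled day 0, 23.3 CPM (21.3 to 25.5) at labelled day 2 and 135 CPM (132 to 139) at labelled day 6. The day 2-labelled library was apart from both others. FZD5 was 7.58-fold higher (6.90 to 8.34) in the day 0-labelled library and 5.81-fold higher (5.29 to 6.39) in the day 6-labelled one than in the day 2-labelled one. Between labelled day 6 and day 0 its ratio was 0.766 (0.737 to 0.796). Thinned shares of cells with an FZD5 UMI were 14.7%, 1.82% and 11.7%, in the same order as the levels.

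FZD3, a receptor known for its part in planar polarity and axon growth, lies on chromosome 8 at 28494205 to 28574268. It stood at 378 CPM (371 to 386) at labelled day 0, 99.1 CPM (94.9 to 104) at labelled day 2 and 174 CPM (169.7 to 178) at labelled day 6. The 3 levels did not overlap, with labelled day 0 highest and labelled day 2 lowest. FZD3 was 3.82-fold higher (3.64 to 4.003) in the day 0-labelled library than in the day 2-labelled one, and 2.18-fold higher (2.11 to 2.24) than in the day 6-labelled one. The ratio of labelled day 6 to day 2 was 1.75 (1.67 to 1.84). Thinned shares of cells were 28.5%, 7.36% and 13.0%, again in the order of the levels.

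FZD7, a receptor known to act in human pluripotent cells, lies on chromosome 2 at 202034587 to 202038445. Its level was 98.7 CPM (95.03 to 102.4) at labelled day 0, 136 CPM (131 to 141) at labelled day 2 and 387 CPM (381 to 393) at labelled day 6. Unlike FZD3 and FZD5, it was highest in the day 6-labelled library and lowest in the day 0-labelled one. FZD7 was 3.92-fold higher (3.77 to 4.08) in the day 6-labelled library than in the day 0-labelled one, and 2.85-fold higher (2.74 to 2.97) than in the day 2-labelled one. The ratio of labelled day 2 to day 0 was 1.38 (1.31 to 1.45). Thinned shares of cells were 10.7%, 10.95% and 27.5%, so the day 0- and day 2-labelled libraries differed less by share than by level.

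Across the 16 receptors and co-receptors in the files, FZD3, FZD5 and FZD7 included, 13 were measured between labelled day 2 and day 0, with 0 at or above 2-fold and 5 at or below 0.5 times. Between labelled day 6 and day 2, 12 were measured, with 5 higher and 0 lower. Between labelled day 6 and day 0, 3 of 13 were higher and 3 lower. Of all measured genes, 10.1% were higher and 10.2% lower between labelled day 2 and day 0. The shares were 8.30% and 6.32% between day 6 and day 2, and 9.94% and 6.09% between day 6 and day 0. The counts of each list below are to be read beside these shares. As for the members, a listed gene that passed 10 CPM only through the library where it is high could be counted in that direction alone. Between labelled day 2 and day 0 this held for ROR2 and FZD1 and, in lists below, for FRZB, RSPO2, PYGO1 and CELSR2, among others. It also held for ROR2 and FZD8 between day 6 and day 2, and for FZD1 between day 6 and day 0. ROR1 and ROR2, receptors with a tyrosine kinase fold that bind WNT5A, had different orders. ROR1 stood at 82.7, 162 and 364 CPM in the day 0-, day 2- and day 6-labelled libraries, and was 4.398-fold higher (4.21 to 4.596) at labelled day 6 than at labelled day 0. ROR2 stood at 55.5, 8.24 and 27.1 CPM, 6.73-fold higher (5.74 to 7.93) at labelled day 0 than at labelled day 2. FZD8, another Frizzled of the anterior neural plate, stood at 12.03, 9.65 and 31.5 CPM, and FZD1 at 16.1, 2.72 and 6.06 CPM.

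SFRP1 and SFRP2, the secreted WNT binders, were present in every library and had different orders. SFRP1, with its gene on chromosome 8 between 41261958 and 41309497, had a level of 715 CPM (705 to 724) in the day 0-labelled library, 701 CPM (689 to 712) in the day 2-labelled one and 1292 CPM (1281 to 1303) in the day 6-labelled one. The day 0- and day 2-labelled libraries overlapped within counting error. SFRP1 was 1.84 times (1.81 to 1.88) the level of labelled day 2 and 1.81 times (1.78 to 1.84) that of labelled day 0 in the day 6-labelled library. The ratio of labelled day 2 to day 0 was 0.981 (0.960 to 1.002). With all barcodes of the files in place of the kept cells, the ratio of labelled day 6 to day 2 was 2.01, just past 2-fold. Thinned shares of cells with an SFRP1 UMI were 49.9%, 46.5% and 67.1%.

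SFRP2, with its gene on chromosome 4 between 153780592 and 153789120, had a level of 271 CPM (265 to 277) at labelled day 0, 343 CPM (335 to 351) at labelled day 2 and 122 CPM (119 to 125) at labelled day 6. The day 6-labelled library, highest for SFRP1, was lowest for SFRP2. SFRP2 was 2.81-fold higher (2.71 to 2.91) in the day 2-labelled library and 2.22-fold higher (2.14 to 2.30) in the day 0-labelled one than in the day 6-labelled one. The ratio of labelled day 2 to day 0 was 1.27 (1.23 to 1.31), and 1.01 with cells limited to 10% mitochondrial UMIs. Thinned shares of cells were 23.6%, 26.4% and 9.78%, in the same order as the levels.

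DKK1, with its gene on chromosome 10 between 52314296 and 52318042, had a level of 11.2 CPM (10.02 to 12.5) in the day 0-labelled library, 0.436 CPM (0.200 to 0.828) in the day 2-labelled one and 0.703 CPM (0.471 to 1.01) in the day 6-labelled one. These levels rest on 318, 9 and 29 UMIs. Only the day 0-labelled library stood apart, as the intervals of the other two overlapped. DKK1 was 25.7-fold higher (13.4 to 56.8) in the day 0-labelled library than in the day 2-labelled one, and 16.0-fold higher (10.9 to 24.2) than in the day 6-labelled one. In the day 6-labelled library, 21 of the 29 UMIs lay in the 161 cells of clusters made up mostly of another library. The cell with the most DKK1 UMIs, among those 161, held 15, so values without those cells rest largely on leaving that cell out. Without those cells the level there was 0.200 CPM and the difference from labelled day 0 was 56.0-fold. Without them the ratio of labelled day 6 to day 2, 1.61 (0.742 to 3.87) with all kept cells, turned to 0.454. With cells limited to 10% mitochondrial UMIs, DKK1 was 93.2-fold higher in the day 0-labelled library than in the day 2-labelled one and 29.5-fold higher than in the day 6-labelled one. These values rest on at most 9 UMIs labelled day 2 and 29 labelled day 6. Of the 9, only 1 lay in cells under 5% mitochondrial UMIs. No interval was computed for them, so their size is not read.

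In the day 0-labelled library, DKK1 was held by few cells. A DKK1 UMI was found in 125 of 2290 cells, or 5.46%, and in 1.004% (0.638 to 1.503) of the cells thinned to 1000 UMIs. At labelled day 2 and day 6 the thinned shares were 0.0413% and 0.0957%, near the gauge of stray counts given for WLS. The 38 cells labelled day 0 with at least 3 UMIs, 1.66% of the cells, held 207 of the 318 UMIs. The highest 1% of cells by DKK1 UMIs held 49.4% of them, against 19.7% for LEF1, 24.4% for AXIN2 and 7.91% for WLS. LEF1, with 370 UMIs, has a number of UMIs close to that of DKK1, and its UMIs were spread over 286 cells. The 22 cells with 5 or more DKK1 UMIs had a median depth of 24741 UMIs, where the median of all kept cells was 8770. The part of depth in this spread was not tested.

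**Figure D3:**
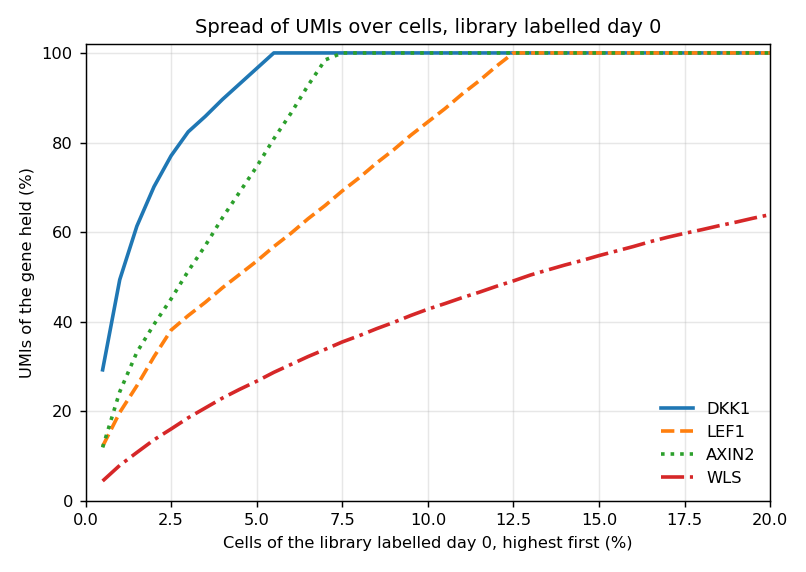
The horizontal axis gives the cells of the day 0-labelled library ordered from the most UMIs of a gene to the fewest (percent of kept cells), and the vertical axis the share of that gene's UMIs they hold (percent). Each line is 1 gene. The line of DKK1 climbs fastest, with 49.4% of its UMIs in the highest 1% of cells, where LEF1 has 19.7% and WLS 7.91%. DKK1 has 318 UMIs in this library, LEF1 370 and WLS 5450, and fewer UMIs alone place a larger share in few cells.

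Cells with a DKK1 UMI in the day 0-labelled library were compared with the 2165 cells without one, as a description within 1 library. FZD5 stood at 228 CPM in the cells with DKK1 and 172 CPM in the others, a ratio of 1.33 (1.21 to 1.45). AXIN2 stood at 10.6 against 6.44 CPM, a ratio of 1.64 (1.05 to 2.47) that rests on 27 UMIs in the cells with DKK1. LEF1 stood at 10.95 against 13.3 CPM, a ratio of 0.826 (0.540 to 1.21). WLS was lower with DKK1, at 162 against 195 CPM, and FZD3 too, at 314 against 385 CPM. BMP4, a ligand of the dorsal midline and ectoderm that was picked with earlier results known, stood at 235 against 133 CPM, a ratio of 1.78 (1.63 to 1.94). Among cells with at least 10000 UMIs, 97 with DKK1 and 961 without, the ratio was 1.34 (1.23 to 1.47) for FZD5 and 1.68 (1.53 to 1.84) for BMP4. In the same cells it was 1.76 (1.11 to 2.70) for AXIN2 and 0.776 (0.489 to 1.18) for LEF1. PAX6 stood at 162 against 177 CPM in all kept cells, a ratio of 0.916 (0.826 to 1.01).

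Of the 17 extracellular antagonists in the files, 6 were measured between labelled day 2 and day 0, with 0 higher and 2 lower, and 5 between labelled day 6 and day 2, with 2 higher and 1 lower. Between labelled day 6 and day 0, 1 of 6 was higher and 2 were lower. FRZB, a relative of the SFRP genes also called SFRP3, stood at 109.9, 7.71 and 66.2 CPM in the day 0-, day 2- and day 6-labelled libraries. FRZB was 14.3-fold higher (12.2 to 16.8) in the day 0-labelled library and 8.59-fold higher (7.32 to 10.1) in the day 6-labelled one than in the day 2-labelled one. DRAXIN, an antagonist and axon guidance protein, stood at 42.4, 33.8 and 126 CPM, and was 3.73-fold higher (3.45 to 4.05) at labelled day 6 than at labelled day 2. Of the antagonists named here, SFRP1 and DRAXIN were thus highest at labelled day 6, and FRZB and DKK1 at labelled day 0. SFRP2 was highest at labelled day 2 in all kept cells, but not in those under 5% mitochondrial UMIs, as given below.

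RSPO3, the R-spondin among the members, lies on chromosome 6 at 127118604 to 127197765 and was scarce, at 1.55, 1.31 and 0.727 CPM from 44, 27 and 30 UMIs. Its thinned shares of cells were 0.0873%, 0.0413% and 0.0478%, below the gauge of stray counts in each library, so no order is read from its levels. Of the 27 UMIs labelled day 2, 11 lay in the 41 cells that clustered with another library, as did 10 of the 30 labelled day 6 in the 161 such cells. Without those cells the levels labelled day 2 and day 6 were 0.784 and 0.501 CPM. Among the other R-spondins and their receptors, RSPO2 stood at 10.5, 1.99 and 11.3 CPM, and the receptor LGR4 at 244, 87.1 and 209 CPM. LGR4 was 2.80-fold higher (2.66 to 2.96) in the day 0-labelled library and 2.39-fold higher (2.28 to 2.52) in the day 6-labelled one than in the day 2-labelled one. Of 9 genes in this list 3 were measured, and 2 of them, RSPO2 and LGR4, differed by at least 2-fold in both comparisons with labelled day 2. RSPO2, under 10 CPM at labelled day 2, could only be counted as lower there.

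AXIN2, a scaffold of the beta-catenin destruction complex and a widely used target gene of the pathway, lies on chromosome 17 at 65528563 to 65561647. It stood at 6.81 CPM (5.88 to 7.84) at labelled day 0, 9.11 CPM (7.86 to 10.5) at labelled day 2 and 7.41 CPM (6.61 to 8.29) at labelled day 6. The 3 levels lay close together, and the interval at labelled day 6 overlapped both others. Its ratio was 1.34 (1.09 to 1.65) for labelled day 2 over day 0, 0.814 (0.676 to 0.981) for day 6 over day 2 and 1.09 (0.906 to 1.31) for day 6 over day 0. Under 4 of the 11 alternatives the ratio of labelled day 6 to day 2 turned above 1, up to 1.16 at 1000 UMIs per cell, where day 6 over day 0 was 1.79. A gene annotated as protein-coding, AC004805.1, overlaps AXIN2 on the same strand, and its level is not given here. Thinned shares of cells with an AXIN2 UMI were 0.480%, 0.744% and 0.861%, above the gauge of stray counts, which does not measure free RNA of AXIN2 itself.

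LEF1, a DNA-binding partner of beta-catenin and a target gene, lies on chromosome 4 at 108047545 to 108168956. It stood at 13.1 CPM (11.8 to 14.5) at labelled day 0, 2.96 CPM (2.26 to 3.80) at labelled day 2 and 11.4 CPM (10.4 to 12.4) at labelled day 6. Labelled day 2 was lowest, and the other libraries overlapped. LEF1 was 4.41-fold higher (3.36 to 5.89) in the day 0-labelled library and 3.84-fold higher (2.94 to 5.10) in the day 6-labelled one than in the day 2-labelled one. When CPM was taken per cell and then averaged, these differences were 7.72-fold and 7.30-fold, and at 10% mitochondrial UMIs the second was 6.59-fold. At 1000 UMIs per cell the day 2-labelled library kept 1 LEF1 UMI, so the thinned ratios are not read. The antisense gene LEF1-AS1 stood at 2.72, 1.65 and 1.45 CPM and, as for WLS, cannot be told apart from the gene without the strand setting. DKK1 likewise overlaps the antisense gene PRKG1-AS1, at 0.635, 0.291 and 0.485 CPM.

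LEF1 and DKK1, both known targets, thus had their lowest levels at labelled day 2, where AXIN2 had its highest level in the kept cells; the intervals of DKK1 at labelled day 2 and day 6 overlapped. Of 18 listed target genes, DKK1, LEF1 and AXIN2 included, 5 were measured in each comparison. Between labelled day 2 and day 0, 1 was higher and 3 were lower, between day 6 and day 2, 2 were higher and 1 lower, and between day 6 and day 0, 1 was higher and 2 were lower. MYC, a growth regulator with inputs beyond WNT, stood at 7.48, 39.0 and 7.73 CPM in the day 0-, day 2- and day 6-labelled libraries, and was 5.22-fold higher (4.48 to 6.10) at labelled day 2 than at labelled day 0. CCND1, a cyclin of the cell cycle, stood at 58.6, 24.5 and 16.5 CPM. TNFRSF19, a receptor also called TROY, stood at 5.65, 1.60 and 15.8 CPM and was 9.86-fold higher (6.95 to 14.4) at labelled day 6 than at labelled day 2. The calls thus went both ways. In each of their calls DKK1, LEF1, MYC and TNFRSF19 passed 10 CPM only through the library where they were high. They could be counted in that direction alone. CCND1 was the only called target at 10 CPM or more in both libraries, so no direction is read from the list.

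Among 13 TCF and LEF factors and their partners, 10, 9 and 10 were measured between labelled day 2 and day 0, day 6 and day 2, and day 6 and day 0. Of these 2 were higher and 3 lower in the first comparison, 1 higher and 0 lower in the second, and 2 higher and 2 lower in the last. TCF7L1, a mostly repressive factor of pluripotent cells, stood at 96.3, 229 and 161 CPM in the day 0-, day 2- and day 6-labelled libraries. The co-repressors TLE1 and TLE4 differed in opposite ways, with TLE1 at 45.7, 119 and 172 CPM and TLE4 at 323, 129.9 and 101.8 CPM. TLE4 was 3.17-fold higher (3.06 to 3.29) and TLE1 3.77-fold lower in the day 0-labelled library than in the day 6-labelled one. PYGO1, a partner of beta-catenin, stood at 11.7, 2.38 and 4.22 CPM. Of the 16 cytoplasmic pathway genes, 1 of 14, 1 of 14 and 1 of 13 measured were at least 2-fold higher and 0 lower in the same comparisons, where 10.1%, 8.30% and 9.94% of all measured genes were higher. These were DVL1, BTRC and CSNK1D, in that order.

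Of 9 planar cell polarity genes, 8, 7 and 8 were measured in the same comparisons, with 1 higher and 2 lower, 3 higher and 1 lower, and 1 higher and 0 lower. PRICKLE1, a cytoplasmic core polarity protein, stood at 11.3, 37.8 and 14.1 CPM. CELSR2, a large cadherin of the polarity complex, stood at 16.4, 7.37 and 34.7 CPM, and DAAM1, a formin that links Dishevelled to actin, at 91.6, 32.9 and 73.6 CPM. Taking together all 103 listed pathway genes that are not members, 51, 48 and 50 were measured. Between labelled day 2 and day 0, 5 were higher and 12 lower, with a median log2 ratio of -0.26. Between labelled day 6 and day 2, 12 were higher and 2 lower, with a median of 0.41, and between day 6 and day 0, 8 were higher and 6 lower, with a median of 0.08. Of all measured genes, 1029 were higher and 1035 lower in the first of these comparisons, 845 and 643 in the second (668 and 781 under median-of-ratios factors), and 1002 and 614 in the last (806 and 758). The lists were chosen with earlier results of these data known.

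Markers of several cell types also differed between the libraries, in differing orders, and their part in the differences was not tested. Summed over 12 neural progenitor markers, the day 0-, day 2- and day 6-labelled libraries held 2136, 421 and 1116 CPM, and without VIM, the most abundant of them, 1462, 214 and 614 CPM. That order was also the order of WLS, FZD3 and FZD5. Within the list, SOX1, at 1.62, 0.921 and 4.85 CPM, and SOX3, at 63.7, 44.2 and 30.2 CPM, had other orders. The 12 pluripotency markers summed to 1249.5, 4411 and 3281 CPM, of which LIN28A alone made up 1039, 1037 and 1828 CPM. Without LIN28A the sums were 210.3, 3374 and 1453 CPM. Neuron markers summed to 196, 53.0 and 212 CPM over 8 genes, of which MAP2 made up 174, 24.4 and 96.3 CPM, and the other 7 summed to 22.4, 28.7 and 116 CPM. Neural crest markers, 7 in number, summed to 19.7, 46.6 and 12.4 CPM, and without FOXD3, at 0, 27.3 and 0.121 CPM, to 19.7, 19.3 and 12.3 CPM. PAX3, SNAI2 and TFAP2A of that list were highest at labelled day 0, at 9.14, 3.81 and 0.706 CPM. ETS1, at 11.98 CPM, and TFAP2B, at 0.436 CPM, were like FOXD3 highest at labelled day 2. NGFR was highest at labelled day 6, at 5.43 CPM. The roof plate and cortical hem, sources of WNT and BMP signals in the dorsal forebrain, had 8 markers that summed to 25.8, 29.7 and 31.1 CPM, and without BAMBI to 20.6, 8.97 and 29.4 CPM. Mesoderm markers, 8 in number, summed to 6.35, 26.3 and 13.0 CPM, mostly KDR at 3.56, 22.8 and 7.15 CPM. Endoderm markers summed to 13.6, 8.73 and 6.49 CPM, led by CXCR4, and non-neural ectoderm markers to 75.8, 95.5 and 104 CPM, led by KRT19, with 6 genes in each list. At 0 UMIs in the day 0-labelled library were 2 pluripotency markers, 2 neuron markers and 1 marker each of neural crest, endoderm and non-neural ectoderm.

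The cells of clusters mostly made up of another library, 41 at labelled day 2 and 161 at labelled day 6, held 211 and 241 CPM of PAX6. Their FZD5 level was 307 and 309 CPM and their FZD3 level 555 and 274 CPM. Of their barcodes, 0 and 4 were shared with kept cells labelled day 0. Without these cells WLS stood at 4.17 CPM, FZD5 at 20.3 CPM and FZD3 at 94.3 CPM in the day 2-labelled library, so these 3 levels rested on the rest of the library. In the day 6-labelled library, FZD5 stood at 129.7 CPM and FZD7 at 397 CPM without them.

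Mitochondrial share differed between the libraries, and each library held a cluster of shallow cells with little mitochondrial RNA. These clusters held 455 cells labelled day 0, 1607 labelled day 2 and 2174 labelled day 6. The shallow cluster mostly labelled day 2 had 1650 cells and 6166676 UMIs, and the deeper one 780 cells and 14405149 UMIs. Levels from summed UMIs thus weigh the deeper cells more. Cells with under 5% mitochondrial UMIs numbered 463, 1185 and 1648, and those with at least 5% numbered 1827, 1234 and 2532. WLS stood at 228, 2.72 and 26.1 CPM in the cells under 5% and at 189.8, 5.17 and 30.2 CPM in the others, with the libraries in the same order in both classes. FZD5 stood at 178, 18.6 and 110.0 CPM against 177, 24.9 and 139.6 CPM. FZD3, at 239, 59.6 and 112 CPM against 388, 112 and 184 CPM, was lower in the cells under 5% in each library. FZD7 stood at 88.0, 93.6 and 304 CPM against 99.4, 149.8 and 400.3 CPM, and in the cells under 5% labelled day 0 and day 2 overlapped within counting error. SFRP2 changed its order with the class. In the cells under 5% it was higher at labelled day 0 (327 CPM, 302 to 355) than at labelled day 2 (275 CPM, 260 to 289), and in the others lower, at 267 against 366 CPM. Labelled day 6 was lowest for SFRP2 in both classes, at 76.8 and 129 CPM.

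**Figure D4:**
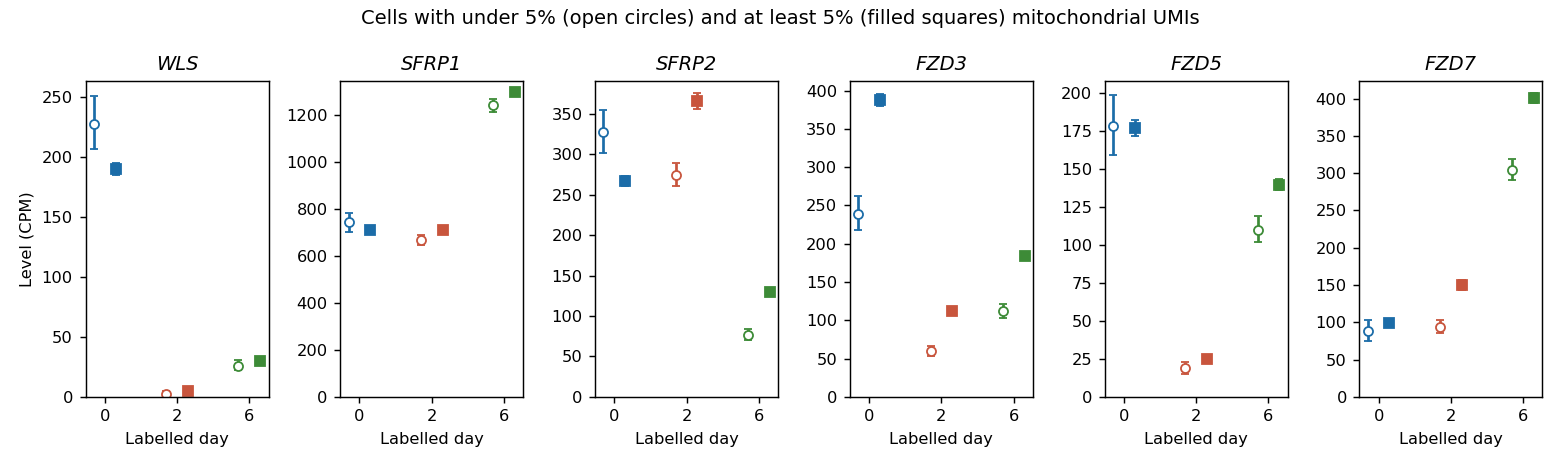
Each panel plots the level of 1 gene (CPM, axis from 0) by labelled day, in cells with under 5% mitochondrial UMIs (open circles) and at least 5% (filled squares), with 95% counting intervals. WLS and FZD5 keep the order of the libraries in both classes, and SFRP2 is higher at labelled day 0 than at labelled day 2 in the open circles alone (327 against 275 CPM).

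Within libraries, cells were also split by a UMI of another gene after thinning to 1000 UMIs each. In the day 0-labelled library, the 498 cells with a UMI of NR2F2, a nuclear receptor of early neural tissue, held 219 CPM of WLS and the 1792 others 183 CPM, a ratio of 1.20 (0.954 to 1.49) that includes 1. In the day 6-labelled library, 1052 cells had a POU5F1 UMI. FZD3 stood at 110.3 CPM in them and 153 CPM in the 3128 others, a ratio of 0.720 (0.583 to 0.884), while SFRP1 stood at 1266 and 1268 CPM. The shallow cluster mostly labelled day 6 held 396 CPM of POU5F1 and 108 CPM of FZD3, and the deeper one 246 and 182 CPM. The part of depth and mitochondrial share in this and the other splits was not tested. The 2116 cells labelled day 6 with a UMI of CUZD1 held 386 CPM of FZD7 against 312.5 CPM in the rest, a ratio of 1.24 (1.11 to 1.37), and 1364 against 1169 CPM of SFRP1. In the day 2-labelled library, 162 cells had a NANOG UMI, and SFRP1 stood at 704 CPM in them against 696 CPM in the others. These splits share 1 library and describe its cells.

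For the 6 members that reached 50 CPM, the genes with the most like pattern were taken from 4276 genes by the distance between their log2(CPM + 1) values after centring, over 3 libraries. So few libraries leave many genes alike. WLS was nearest to PRTG, with a distance of 0.40 and levels of 938, 33.9 and 130 CPM, followed by GLIS3 and MEIS2. FZD5 was nearest to the cyclin gene CCNG2, at 0.06, with 166, 22.6 and 123 CPM, then to FEZF1-AS1 and SMOC1. FZD7 was nearest to LRP1, a large lipoprotein receptor, at 0.02, with 22.6, 31.7 and 92.8 CPM, then to FGFR1 and MTCL1. FZD3 was nearest to PEG10, SHROOM3 and ATP2B1, SFRP1 to SEMA4C, DDR1 and ATP6V0E1, and SFRP2 to PCDH15, PTTG1 and the mitochondrial ribosomal RNA MT-RNR1. MT-RNR1 stood at 7644, 8396 and 3166 CPM.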

How the data were processed

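Per the labels' protocols, H9 cells were profiled by inDrop with TruDrop. For each of the 3 libraries the authors deposited whole-number counts as a matrix of gene symbols by barcodes. They were taken as UMI counts, although no source used here states that duplicate reads were collapsed. The submitters' processing notes name STAR, without its version, and hg38. Strand setting, annotation and barcode filter were not stated there or in the labels.

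A barcode was kept as a cell if it had 1000 or more UMIs and 500 or more genes, with mitochondrial UMIs at 25% or less. Counts were summed per library and given as CPM with exact Poisson intervals. Ratios have exact conditional binomial intervals and shares exact Clopper-Pearson intervals, all at 95%. With 1 library per day there was no test. A ratio past 2-fold with at least 10 CPM in 1 of the libraries was counted. For shares, each kept cell was thinned to 1000 UMIs. Doublets were kept and no caller was run; an alternative left out the 5% of cells with most UMIs. Cells were clustered with scanpy 1.11.5 and igraph 0.11.9 (2000 variable genes, 30 components, 15 neighbours, resolution 0.5); WLS, FZD7 and DKK1 were among the variable genes. The calculations were tested on simulated data.

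Named genes are the 10 members and, per pathway list and comparison, up to 3 genes with the largest and 3 with the smallest ratio past 2-fold, with the 3 highest ligands of each library and the 3 genes most like each member above 50 CPM. BMP4, PAX6, POU5F1, the marker genes, NR2F2, CUZD1 and NANOG were named outside this rule. The members and the 9 pathway and 8 marker lists were chosen with earlier results of these data known. Of the listed symbols 1 was matched by an older name, and SOX10 is not analysed here. Gene positions and overlaps are from GENCODE v29, and upstream sequences from RefSeq. A planned comparison of protein sequences was not run.

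Alternatives were limits of 10% and at least 5% on mitochondrial UMIs, a minimum of 2000 UMIs, all barcodes, scaling by median-of-ratios size factors or by TMM factors (edgeR 4.0.16), totals that leave out ribosomal protein and mitochondrial genes, the mean of each cell's CPM, leaving out cells of clusters mostly of another library, and thinned cells. For counts of genes, minimums of 1 and 50 CPM and a fold of 1.5 were added to these; for the members, the CPM minimums were chosen after seeing the data.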

Additional observations from a re-analysis of the deposited data

How the results depend on the processing

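The counts of members at least 2-fold apart kept within 1.5 times of their values under the alternatives run, except with a minimum of 50 CPM, added after the data were seen. It gave 3 in place of 5 members for labelled day 2 against day 0, and also 3 in place of 5 for day 6 against day 2. The 15 ratios of members past 2-fold with at least 10 CPM stayed on the same side of 2-fold in all 11 alternatives, and none of them turned its direction. Ratios that were not past 2-fold, or rest on few UMIs, did turn under some alternatives (RSPO3, DKK1 and AXIN2 for labelled day 6 against day 2, RSPO3 for day 2 against day 0 and LEF1 for day 6 against day 0). SFRP1 passed 2-fold between labelled day 6 and day 2 with all barcodes. Counts of the other pathway genes moved with the thresholds. With a minimum of 1 CPM they were 34, 26 and 25 for labelled day 2 against day 0, day 6 against day 2 and day 6 against day 0, in place of 17, 14 and 14. With a minimum of 50 CPM they were 9, 5 and 8, and at 1.5-fold 27, 25 and 26. Of the other values tried, 230 ratios of members stayed within their counting interval and 100 moved past it, and 55 of 60 shares of cells moved. No paired analysis was possible because there is 1 library per day. Depth limits DKK1, RSPO3 and LEF1 in the day 2-labelled library, which rest on 9, 27 and 61 UMIs. The variation between cultures could not be measured.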
